A study of Mus musculus with 27 samples.

Results

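The 10 genes described here, Pecam1, Cdh5, Esam, Emcn, Vwf, Kdr, Flt1, Flt4, Tek and Stab2, are widely used markers of endothelial cells, the cells that line blood and lymph vessels. They were picked by name from the 30153 entries of a table of normalized counts, and each of the 10 names was found once. They were picked because earlier results of the same table had shown them to be high in cells that carry CD105, so their difference between CD105+ and CD105- cells is given as a description, without a test. RNA-sequencing had been carried out on cells of Prx1-CreER/Ai14/Rag1 mice, in which the Prx1 promoter drives a tamoxifen-dependent Cre recombinase, the Ai14 reporter then marks Prx1 cells and their progeny with tdTomato, and the Rag1 gene is mutated. All groups shared this genotype and the tamoxifen treatment, and cells were harvested 3 days after the last dose from the hindlimbs of male and female mice aged 8 to 12 weeks. The tdTomato+ CD45- cells of skeletal muscle, periosteum and bone marrow were each sorted into 3 subpopulations by surface antigens. P3 carried CD105 and any level of CD200, and of the CD105- cells those with CD200 formed P1 and those without it P2, which gave 9 groups of 3 libraries. The labels do not say which mouse gave which library, although each group is described as coming from 3 mice. The p-values given here measure the spread between these libraries. The reporter marks any cell in which the Prx1 promoter was active at the time of treatment and all cells that descend from it, and it does not by itself say which cell type was sorted.

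Endothelial cells hold together through junction proteins such as VE-cadherin, and they sense vascular growth factors through receptor tyrosine kinases of the VEGF receptor and Tie families. CD105, or endoglin, is a co-receptor for ligands of the TGF-beta and BMP family and is itself abundant on endothelium, although stromal cells carry it too. The vessels of bone marrow include sinusoids, wide and leaky vessels whose endothelium takes up waste through scavenger receptors, whereas skeletal muscle is supplied mainly by continuous capillaries.

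Eng followed the labels without overlap, and Cd200 did so in periosteum and marrow. Eng, which encodes CD105, had normalized counts of 6067, 5621 and 4523 in muscle P3, 6206, 7328 and 3763 in periosteum P3 and 1739.5, 774 and 1072 in bone marrow P3, above every P1 and P2 library of the same tissue, where the highest was 569. Ptprc, which encodes CD45, was at most 35.7 in the P3 libraries of muscle and periosteum but 66.5 to 321 in bone marrow P3 and 312 to 829 in bone marrow P2. Cd200, which separates P1 from P2, was 1025, 3274 and 2560.4 in muscle P1 and 10.3, 1107 and 69.5 in muscle P2, so that muscle P2 replicate 2 overlapped P1, whereas in periosteum and marrow it was at least 2607 in P1 and at most 72.6 in P2. Prrx1, the gene behind the Prx1 driver, had a value of at least 64.0 in each of the 27 libraries. Library totals ran from 8631881 to 26230908 normalized counts. Within P3, the lowest and highest Pearson r between replicate libraries over the genes tested were 0.947 and 0.955 in muscle, 0.718 and 0.827 in periosteum, and 0.909 and 0.935 in bone marrow. These are bulk samples, in which fewer cells of a type and less RNA per cell cannot be told apart. A list of 10 erythroid genes took up 24.7% to 39.7% of each periosteum P2 library and 45.7% to 48.9% of each marrow P2 library, but at most 2.97% in any P1 and 4.86% in any P3 library, so that the CD105- cells with which P3 is compared include 1 group rich in such RNA in periosteum and in marrow.

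Promoters were looked at because most of the 10 genes stood high in the same libraries, Stab2 being an exception in muscle and periosteum. RefSeq promoter sequences (GRCm38.p6) were at hand for 6 of the 10 genes: Emcn, Tek, Kdr, Flt1, Stab2 and Flt4. In each, the 250 bases before the RefSeq transcription start were searched on both strands for AGGAAG and CGGAAG. Both hold the GGAA core read by ETS transcription factors, a family that acts on many endothelial genes. AGGAAG was found at 2 places in Emcn, at 2 in Flt1 and at 1 in Stab2, and CGGAAG in none of the 6. By another annotation (GENCODE M21), 83 of the Stab2 bases lie in a Stab2 exon, and the Stab2 match is among them. The whole Flt4 window lies in a Flt4 exon by that annotation. For these genes the searched bases are thus not all upstream of the gene. Of 32851 promoters of the same length, 29.5% held AGGAAG and 13.6% held CGGAAG. The promoters of Emcn and Flt1, which hold 2 matches each, and that of Kdr, which holds none, are shown 5′ to 3′ without the bases that lie in an exon of the gene, with matches to AGGAAG or its reverse complement in capitals. The stretches are chr3:137340828-137341066 on the plus strand for Emcn, chr5:147726012-147726261 on the minus strand for Flt1 and chr5:75978459-75978705 on the minus strand for Kdr.
Emcn: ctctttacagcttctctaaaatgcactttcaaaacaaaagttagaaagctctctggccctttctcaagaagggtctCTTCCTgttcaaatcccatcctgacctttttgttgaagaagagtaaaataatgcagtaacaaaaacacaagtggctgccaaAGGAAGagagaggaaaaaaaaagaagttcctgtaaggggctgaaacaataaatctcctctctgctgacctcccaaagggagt
Flt1: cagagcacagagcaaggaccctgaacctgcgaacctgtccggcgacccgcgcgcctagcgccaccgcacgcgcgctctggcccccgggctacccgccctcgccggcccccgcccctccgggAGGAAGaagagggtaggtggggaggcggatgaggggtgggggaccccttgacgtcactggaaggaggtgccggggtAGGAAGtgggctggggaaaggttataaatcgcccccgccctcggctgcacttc
Kdr: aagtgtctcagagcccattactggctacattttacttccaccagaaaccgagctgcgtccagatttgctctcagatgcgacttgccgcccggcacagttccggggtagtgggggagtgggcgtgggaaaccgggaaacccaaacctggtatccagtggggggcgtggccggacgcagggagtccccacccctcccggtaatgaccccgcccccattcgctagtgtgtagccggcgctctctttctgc
A match is a description of these letters and not a bound site.

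Among the genes of the endothelial surface and junctions, VE-cadherin gave the plainest pattern. In muscle, Cdh5, which encodes VE-cadherin, the adhesion protein of endothelial junctions, had normalized counts of 2344, 1887 and 1929 in P3 and 34.8 to 234 (median 104) over the 6 libraries of P1 and P2. In periosteum it had 2092, 1567 and 950.4 in P3 and 1.21 to 15.5 (median 4.55) in P1 and P2. In bone marrow it had 774, 139 and 285 in P3 and 0 to 61.2 (median 3.67) in P1 and P2. P3 was above P1 and P2 without overlap in all 3 tissues, and the P1 and P2 libraries of periosteum and marrow were mostly near 0 while those of muscle were not. On the log2(normalized count + 1) scale, P3 minus the mean of P1 and P2 was 4.29 (SE 0.88) in muscle, 8.13 (SE 0.88) in periosteum and 5.70 (SE 0.88) in marrow.

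Esam, an adhesion molecule of endothelial tight junctions and platelets, separated muscle from periosteum by its CD105- cells, while those of marrow overlapped both. Its values were 10500.1, 6137 and 9336 in muscle P3 against 211 to 2002 (median 911) in muscle P1 and P2. They were 8062, 4856 and 5083 in periosteum P3 against 0.849 to 11.4 (median 3.77) in periosteum P1 and P2, and 1549, 482 and 1224 in marrow P3 against 9.46 to 294 (median 83.9) in marrow P1 and P2. Muscle and periosteum P3 thus lay in a similar range while the CD105- cells of muscle held at least 211 counts and those of periosteum at most 11.4. The log2 difference was 3.54 (SE 0.65) in muscle, 10.25 (SE 0.65) in periosteum and 4.10 (SE 0.65) in marrow, and the periosteum value was the highest of any of the 10 genes in any tissue.

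Emcn, which encodes endomucin, a sialomucin of capillary and venous endothelium, was also low or close to 0 in the CD105- cells of periosteum and marrow. It stood at 4565, 3194 and 3858 in muscle P3, where P1 and P2 held 78.4 to 974 (median 259). It stood at 6627, 405 and 2213 in periosteum P3 and 1366, 321 and 587 in marrow P3, where P1 and P2 did not exceed 10.4 and 15.7, respectively. The periosteum P3 libraries spread widely, with replicate 2 far below replicate 1, yet even the lowest P3 library of each tissue was above all CD105- libraries. The log2 difference was 4.01 (SE 0.90) in muscle, 9.27 (SE 0.90) in periosteum and 7.20 (SE 0.90) in marrow. With values near 0 in the CD105- cells, these differences depend on the pseudocount of 1.

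Pecam1, the CD31 antigen of endothelium, platelets and several leukocytes, was high in P3 of muscle and periosteum and less so in marrow. It read 10537, 6067 and 8460.0 in muscle P3 against 496 to 1649 (median 973) in P1 and P2, and 8136, 4691 and 3176 in periosteum P3 against 34.4 to 565 (median 172). In bone marrow, it read 985, 655 and 815 in P3, 704, 697 and 793 in P2 and 136, 75.7 and 74.3 in P1. The P3 and P2 libraries of marrow overlapped and both lay above P1. P3 minus the mean of P1 and P2 was 3.24 (SE 0.54) in muscle, 4.94 (SE 0.54) in periosteum and 1.64 (SE 0.54) in marrow.

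Vwf, which encodes von Willebrand factor, the platelet-binding protein that endothelium and megakaryocytes make, departed from the others in bone marrow. It stood at 7319, 10558 and 5563 in muscle P3 and 1614, 2026 and 1901 in periosteum P3, against 248 to 4525 (median 913) and 12.1 to 422 (median 191) in the CD105- cells. In bone marrow, the values were 142, 106 and 465 in P1, 1796, 1811 and 1219 in P2 and 451, 667 and 491 in P3, so that P2 was the highest group and all 3 of its libraries were above all 3 of P3. The log2 difference between P3 and the mean of P1 and P2 was 2.85 (SE 0.78) in muscle, 3.72 (SE 0.78) in periosteum and -0.06 (SE 0.78) in marrow. The marrow value took the opposite sign, 0.97, when all libraries were scaled to the same total.

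**Figure D1:**
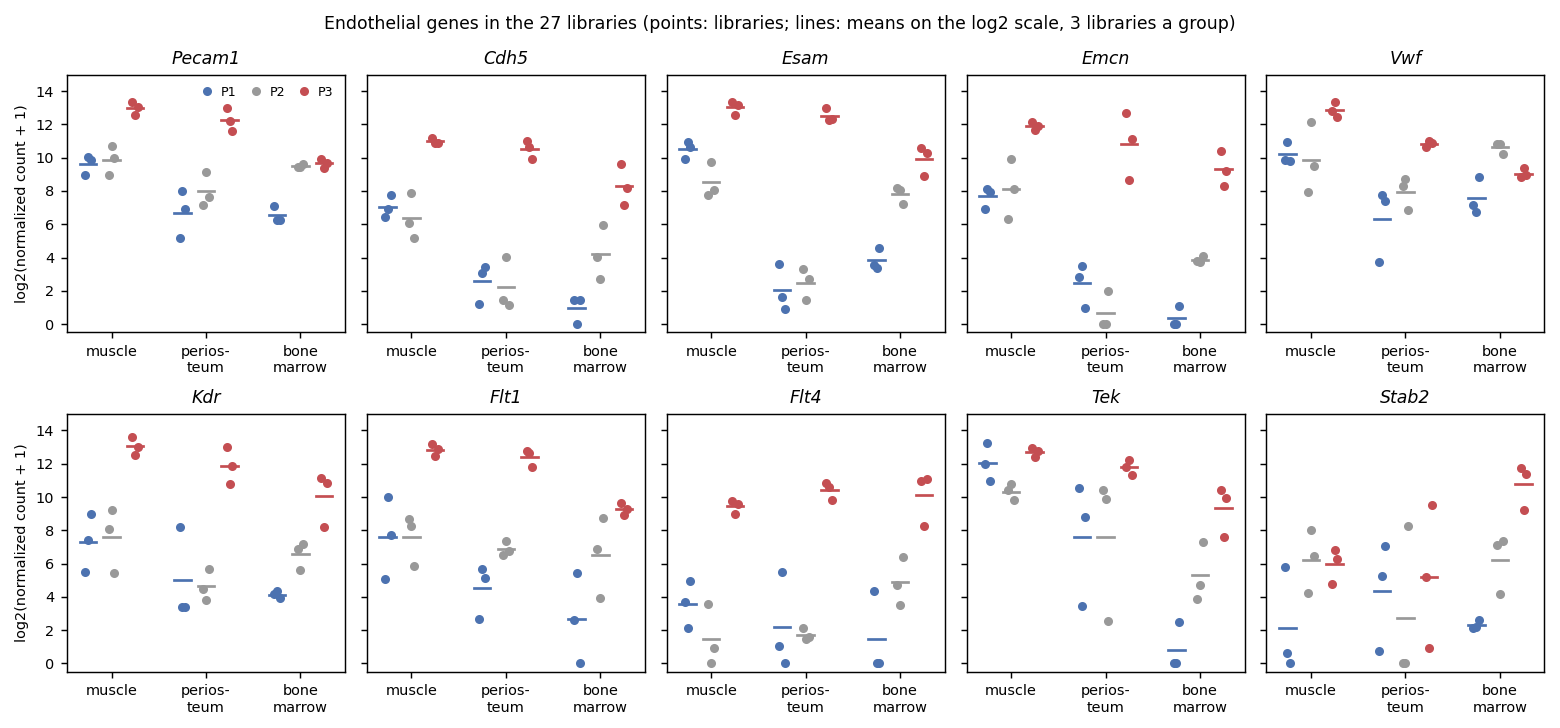
Each panel plots 1 gene, with log2(normalized count + 1) on the vertical axis and the 3 tissues on the horizontal axis. Points are libraries (3 a group) coloured by subpopulation and lines are group means; P3 lies above P1 and P2 in most panels, the exceptions being Tek and Stab2 in muscle, Stab2 in periosteum, and Pecam1 and Vwf in marrow.

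The 3 VEGF receptors were highest in P3 in each tissue. Kdr, or VEGFR2, which relays most of the VEGF-A signal, had values of 12429, 5900.3 and 8278 in muscle P3 against 42.5 to 591 (median 219) in muscle P1 and P2. It had 8190.5, 1772 and 3763 in periosteum P3 against 9.41 to 298 (median 17.1), and 2276, 291 and 1857 in marrow P3 against 14.0 to 141 (median 33.6). No CD105- library reached a P3 library of its tissue, and marrow P3 replicate 2 was well under the other two. The log2 difference was 5.61 (SE 1.01) in muscle, 7.06 (SE 1.01) in periosteum and 4.73 (SE 1.01) in marrow.

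Flt1, or VEGFR1, which binds VEGF-A tightly and limits what reaches Kdr, stood at 9468, 5641 and 7532 in muscle P3, 6927, 6340.3 and 3642 in periosteum P3 and 790.2, 490.1 and 628 in marrow P3. The CD105- libraries held 33.3 to 1045 (median 255) in muscle, 5.48 to 159 (median 71.4) in periosteum and 0 to 420.2 (median 28.0) in marrow. The groups did not overlap in any tissue, but the marrow P2 library at 420 came near the lowest marrow P3 library at 490. Differences of 5.25 (SE 1.10), 6.72 (SE 1.10) and 4.70 (SE 1.10) on the log2 scale were obtained for muscle, periosteum and marrow.

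Flt4, or VEGFR3, the receptor of VEGF-C and VEGF-D, is best known from lymphatic vessels but is also found on sinusoidal endothelium. It read 858, 501 and 771 in muscle P3, 1827, 1528 and 902 in periosteum P3 and 2029, 303 and 2133 in marrow P3, while no CD105- library of any tissue exceeded 83.0. Unlike Kdr and Flt1, its marrow P3 libraries 1 and 3 were above all P3 libraries of muscle and periosteum. The log2 difference between P3 and the CD105- cells was 6.90 (SE 1.19) in muscle, 8.46 (SE 1.19) in periosteum and 6.94 (SE 1.19) in marrow.

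Tek and Stab2 were the 2 genes whose P3 libraries overlapped the CD105- cells in muscle. Tek, which encodes Tie2, the receptor of the angiopoietins, had 7811, 5496 and 7044 in muscle P3 but also 4074, 9662 and 1997 in muscle P1 and 1349, 1756 and 892 in muscle P2. In periosteum, it had 3535, 4816 and 2546 in P3, 1512, 9.94 and 450.4 in P1 and 1392, 948 and 4.73 in P2. In bone marrow, it had 1353, 195 and 997 in P3 against 0 to 154 (median 9.19) in P1 and P2. In muscle, 1 P1 library was above all P3 libraries and the other two were below them, the periosteum CD105- libraries were split between values near 0 and far higher ones, and in marrow the lowest P3 library was close to the highest CD105- library. The log2 difference was 1.52 (SE 1.38) in muscle, 4.16 (SE 1.38) in periosteum and 6.27 (SE 1.38) in marrow.

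Stab2 encodes stabilin-2, a scavenger receptor for hyaluronan that marks sinusoidal endothelium of liver, spleen and marrow. Its values in bone marrow were 3408, 600.4 and 2632 in P3, 136, 16.9 and 165 in P2 and 3.40, 3.54 and 5.15 in P1. In muscle P3 they were 26.8, 113 and 76.1 and in periosteum P3 35.7, 0.862 and 729.9, overlapping the CD105- libraries, which held 0 to 255 (median 35.7) in muscle and 0 to 303 (median 19.2) in periosteum. High values were thus seen in the marrow P3 libraries, and 1 periosteum P3 library, replicate 3, stood far above its partners. The log2 difference was 1.78 (SE 1.84) in muscle, 1.65 (SE 1.84) in periosteum and 6.51 (SE 1.84) in marrow. Without periosteum P3 replicate 3 the periosteum value turned to -0.50.

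Over the 10 genes, all 3 P3 libraries were above all 6 P1 and P2 libraries for 8 genes in muscle, 9 in periosteum and 8 in marrow. Of the 18442 genes that were kept, this held for 8.39% in muscle, 2.34% in periosteum and 4.45% in marrow, and since the genes had been chosen for this pattern nothing is read from the counts. All 10 passed the filter of at least 10 normalized counts in at least 3 libraries, and each could have passed it through P3 alone. The median log2 difference over the 10 genes was 3.78 in muscle, 6.89 in periosteum and 5.21 in marrow, beside medians over all genes of 0.27, -0.03 and -0.27. Marrow P3 replicate 2 was the lowest of its group for 9 of the 10 genes, the exception being Vwf, for which it was the highest. Without that library and periosteum P3 replicate 2, an alternative chosen after the data had been seen, the differences in marrow were 5.67 for Kdr and 7.29 for Stab2.

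**Figure D2:**
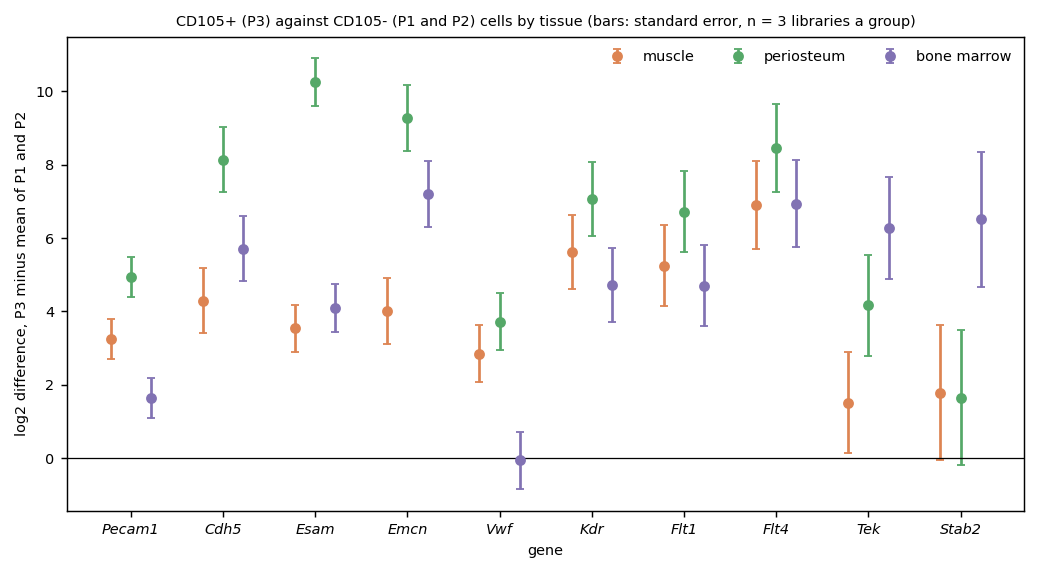
The vertical axis gives the log2 difference between P3 and the mean of P1 and P2, and the horizontal axis the 10 genes, with points coloured by tissue and bars showing the standard error (n = 3 libraries a group). Esam in periosteum lies highest at 10.25, and Vwf in bone marrow lies at -0.06.

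A list of 27 further genes typical of endothelium was also tested. The list was written with the earlier results of these data known and leaves out Eng, which was used for the sort. Its counts and p-values are thus a description and not independent evidence. Shares of all genes are given for scale, and nothing is read from the comparison with them. With limma and Benjamini-Hochberg adjustment over all genes, a gene was called at an adjusted p under 0.05 and an absolute log2 fold change over 1.5. In P3 against P1 and P2, 20 of the 27 genes rose in muscle, 25 in periosteum and 14 in marrow, and none fell, where the share of all genes that rose was 2.09%, 3.98% and 1.39%. Their median log2 fold change was 4.26 in muscle, 7.23 in periosteum and 4.11 in marrow. All 27 had a positive difference in each tissue, and Erg and Sox17, both transcription factors of endothelium, were called in none. These differences are over the mean of P1 and P2 and do not by themselves place P3 above each. S1pr1, for example, was higher in P1 than in P2 in periosteum and marrow.

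Among the genes that rose, Tie1, an orphan partner of Tie2, stood at 8140.3, 4529 and 6912 in muscle P3, 5416, 6147 and 4366 in periosteum P3 and 1269, 380.3 and 759 in marrow P3. Its log2 fold change was 4.14 (SE 0.73, limma adjusted p = 0.000738) in muscle, 7.93 (SE 0.73, limma adjusted p = 4.61e-07) in periosteum and 4.24 (SE 0.73, limma adjusted p = 0.00153) in marrow. Cldn5, the claudin of endothelial tight junctions, rose by 6.14 (SE 1.07, limma adjusted p = 0.000709) in muscle and 7.97 (SE 1.07, limma adjusted p = 0.000151) in marrow. In periosteum, Cldn5 was 1104, 886 and 1014 in P3 and 2.01, 2.98 and 0 in P1, and it was listed at 0 in all 3 libraries of P2. Aplnr, the apelin receptor, rose by 6.68 (SE 1.15, limma adjusted p = 0.000632) in muscle and 10.57 (SE 1.15, limma adjusted p = 3.30e-06) in periosteum. In marrow, Aplnr was 1090.1, 322 and 817 in P3 and 5.09, 3.54 and 8.56 in P1, and it was listed at 0 throughout P2. Ushbp1 rose by 7.17 (SE 1.04, limma adjusted p = 0.000104) in muscle, and in periosteum and marrow it was listed at 0 in all P2 libraries while P3 held 3017, 605 and 1871 and 999, 175 and 903. With CD105- libraries this close to 0, the size of the fold changes in periosteum and marrow depends on the pseudocount. The muscle count was also sensitive to single libraries, since 8 genes were called without muscle P3 replicate 1 and 11 without replicate 2 or without replicate 3. Without bone marrow P3 replicate 3, 8 genes were called in marrow.

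The ligands and partners of the receptors were read from a list of 17 genes of the VEGF, angiopoietin and linked pathways. In P3 against P1 and P2, 6 rose in muscle, 8 rose and 1 fell in periosteum, where 2.23% of all genes fell, and 3 rose in marrow. Ptprb, the phosphatase that restrains Tie2, rose in all 3 tissues by 5.01 (SE 0.89, limma adjusted p = 0.000777), 6.26 (SE 0.89, limma adjusted p = 8.93e-05) and 5.46 (SE 0.89, limma adjusted p = 0.00091). Nrp1, a co-receptor of Kdr, rose by 3.51 in muscle, 2.94 in periosteum and 2.34 in marrow, with limma adjusted p of 0.00129, 0.00702 and 0.0384. In marrow, Nrp1 was itself 5.37 higher in P1 than in P2 (SE 0.75, limma adjusted p = 8.50e-06). The marrow rise is thus over the mean of 2 unlike groups and does not place P3 above P1. The summed level of the 17 genes in marrow was 27175 to 45475 in P1, above the 3793 to 11719 of P3. Of the ligands, Vegfc, which acts on Flt4, rose in muscle by 4.67 (SE 0.84, limma adjusted p = 0.000897) and in periosteum by 3.26 (SE 0.84, limma adjusted p = 0.0195). Angpt2, an angiopoietin that acts on Tek, rose in muscle by 4.19 (SE 0.83, limma adjusted p = 0.00239) and in periosteum by 3.90 (SE 0.83, limma adjusted p = 0.0052). Between the CD105- cells, Vegfc was higher in P1 than in P2, by 3.22 in muscle (limma adjusted p = 0.036) and 5.73 in periosteum (limma adjusted p = 0.000166). Angpt2 was 4.22 higher in muscle P1 than in muscle P2 (limma adjusted p = 0.00523). These rises are over the mean of P1 and P2 and do not by themselves place P3 above P1. Vegfa, the chief ligand of Kdr and Flt1, fell in periosteum P3 by 3.18 on the log2 scale (limma adjusted p = 0.00789), with values of 119, 186 and 16.5 in P3, 373, 1606 and 1491 in P1 and 593, 298 and 539.9 in P2. Dll4, a Notch ligand of sprouting and arterial endothelium, rose in muscle by 6.72 (SE 1.72, limma adjusted p = 0.0208).

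The CD105+ cells were next compared between tissues, a contrast that the choice of genes had not used. Pecam1, Esam and Vwf were higher in muscle P3 than in marrow P3, and Pecam1 and Esam were higher in periosteum P3 than in marrow P3. Between muscle and periosteum, none of the 10 genes passed limma's test, where 3.5% of all genes did, and 1 of the 10, Vwf, had an unadjusted p under 0.05. The log2 difference of Vwf was 2.04 with a 95% interval of 0.18 to 3.89. For Kdr it was 1.16 with an interval of -1.25 to 3.57, and for Cdh5 0.48 with an interval of -1.62 to 2.59. Differences of several fold thus remain possible, for most genes more toward higher values in muscle. For Pecam1 the interval ran from -0.57 to 2.01. The sign was positive for 9 of 10 genes, Flt4 being the exception, beside a median over all genes of 0.68.

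Against bone marrow, 3 of the 10 genes passed in muscle P3, where 10.4% of all genes did, and 2 passed in periosteum P3, where 6.94% did. Pecam1 was 3.33 higher on the log2 scale in muscle than in marrow (SE 0.63, limma adjusted p = 0.000742) and 2.61 higher in periosteum than in marrow (SE 0.63, limma adjusted p = 0.0107). Esam differed by 3.12 (SE 0.75, limma adjusted p = 0.00652) between muscle and marrow and by 2.59 (SE 0.75, limma adjusted p = 0.0352) between periosteum and marrow. Vwf differed by 3.83 (SE 0.90, limma adjusted p = 0.00538) between muscle and marrow. The all-gene medians were 0.35 for muscle against marrow and -0.36 for periosteum against marrow, so these differences are larger than the general shift. Without bone marrow P3 replicate 2, the library with low values for 9 genes, Pecam1 was still called between muscle and marrow, whereas Esam lost its call there (limma adjusted p = 0.0617) and no gene was called between periosteum and marrow. Between periosteum and marrow, leaving out periosteum P3 replicate 1, periosteum P3 replicate 2 or bone marrow P3 replicate 3 left 1 gene called.

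Stab2 and Flt4 had negative values for muscle against marrow. The log2 difference of Stab2 between muscle and marrow P3 was -4.81 with an interval of -9.19 to -0.43 (limma adjusted p = 0.169), and between periosteum and marrow the difference was -5.57 with an interval of -9.95 to -1.19 (limma adjusted p = 0.116). Both intervals lay below 0, and neither passed after adjustment over all genes. Without periosteum P3 replicate 3, the library with the high value, the difference between periosteum and marrow was -7.73 and was called (limma adjusted p = 0.0268). Flt4 differed by -0.66 between muscle and marrow, with an interval of -3.50 to 2.17. Kdr, Tek, Cdh5, Emcn and Flt1 each had an unadjusted p under 0.05 between muscle and marrow, with log2 differences of 2.98, 3.39, 2.70, 2.59 and 3.56, and none passed after adjustment. With only the muscle and marrow P3 libraries in the fit, 9 of the 10 genes were called, Flt4 being the exception.

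**Figure D3:**
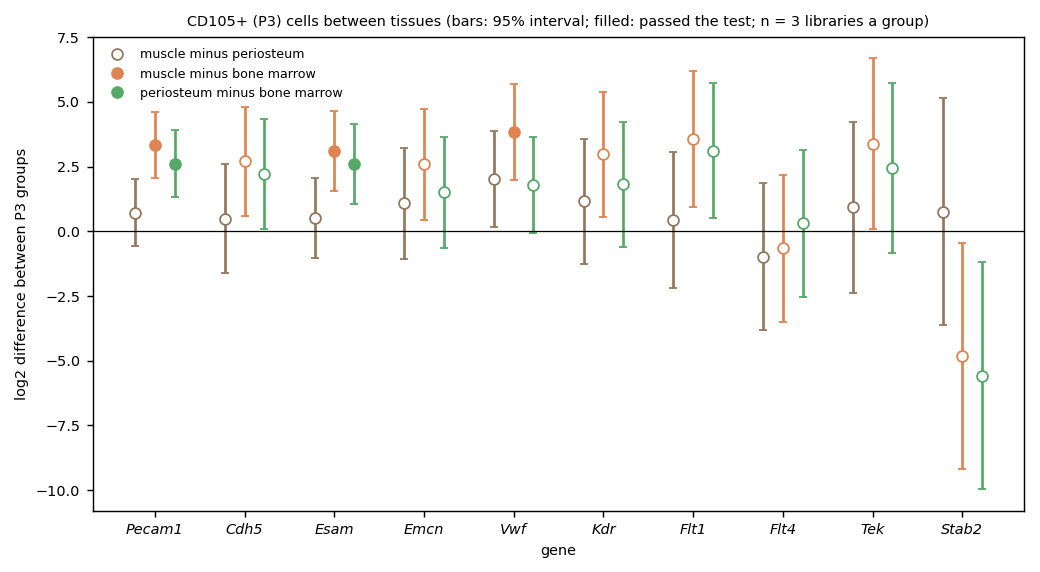
The vertical axis gives the log2 difference between P3 groups of 2 tissues for the 10 genes on the horizontal axis, with bars for the 95% interval and filled points for differences that passed the test (n = 3 libraries a group). Filled points are Pecam1, Esam and Vwf for muscle against bone marrow, and Pecam1 and Esam for periosteum against bone marrow, and Stab2 is the gene with both marrow comparisons below 0.

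Whether the P3 difference itself varied between tissues was tested as an interaction. It is built from the P3 differences for which the genes had been chosen. Its p-values are thus a description and not independent evidence. Between muscle and periosteum, Esam and Emcn passed, where 1.81% of all genes did. The P3 difference of Esam was smaller in muscle than in periosteum, at -6.71 (SE 0.92, limma adjusted p = 0.00027) for muscle minus periosteum, and so was that of Emcn, at -5.26 (SE 1.27, limma adjusted p = 0.0308). The P3 libraries of the 2 tissues overlapped for both genes, whereas their CD105- libraries did not, running in muscle from 211 to 2002 for Esam and from 78.4 to 974 for Emcn. Between periosteum and marrow, Pecam1 and Esam passed, where 0.569% of all genes did, with larger P3 differences in periosteum by 3.30 (SE 0.77, limma adjusted p = 0.0445) and 6.15 (SE 0.92, limma adjusted p = 0.00122). The Pecam1 call was lost in 22 of 38 alternatives, over which its value ran from 2.84 to 3.63, whereas the Esam call between muscle and periosteum held in all 38. The Pecam1 call was lost on leaving out, 1 at a time, any muscle P1 or muscle P3 library, muscle P2 replicate 3, periosteum P3 replicates 1 or 2, any bone marrow P1 or P3 library, or bone marrow P2 replicates 1 or 3. The Emcn call was lost in 11 of 38 alternatives. These were pseudocounts of 0.1 and 5 (-3.91 with the latter), quantile normalization (-3.87, limma adjusted p = 0.145) and only the groups compared, and fits without muscle P1 replicates 2 or 3, muscle P2 replicate 2, any muscle P3 library, or periosteum P3 replicate 1. The Esam call between periosteum and marrow was lost with only the groups compared in the fit (limma adjusted p = 0.0503). Between muscle and marrow none passed, where 4.83% of all genes did and 4 of the 10 had an unadjusted p under 0.05.

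Genes of endothelial subtypes were read from lists of arterial, venous, muscle capillary, sinusoidal and lymphatic endothelium, again written with earlier results known. In P3 of muscle against marrow, 7 of 10 capillary genes, 5 of 10 arterial genes, 3 of 6 lymphatic genes, 1 of 9 sinusoidal genes and none of 6 venous genes were higher, and 1 sinusoidal gene was lower. Lyve1 is the sinusoidal gene that was higher and is also counted among the lymphatic genes. In P3 of periosteum against marrow, 4 capillary, 3 arterial and 1 lymphatic gene were higher and 1 sinusoidal gene was lower. Of the 6 venous genes, 2 and 0 had an unadjusted p under 0.05 in these comparisons. The shares of all genes called higher were 6.14% and 2.95%, and those called lower 4.25% and 3.99%.

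Car4, a membrane carbonic anhydrase of capillaries, stood at 1101, 585 and 946 in muscle P3 and 479, 213 and 248 in periosteum P3, and it was listed at 0 in all 3 marrow P3 libraries. Meox2, a homeobox gene of muscle and heart capillaries that mesenchymal cells also express, stood at 2661, 2191 and 2319 in muscle P3, 435, 1395 and 609.7 in periosteum P3 and 4.28, 2.87 and 0 in marrow P3, with a muscle-marrow difference of 9.77 (SE 1.33, limma adjusted p = 1.70e-05). Gja4, a connexin of arteries, differed by 8.33 (SE 1.55, limma adjusted p = 0.000676) between muscle and marrow and by 7.13 (SE 1.55, limma adjusted p = 0.0054) between periosteum and marrow, with marrow P3 libraries at 43.2, 1.90 and 0. Of these genes, Car4 and Meox2 were at or close to 0 in all 3 marrow P3 libraries and Gja4 in 2 of them, whereas the lowest marrow P3 values of Kdr, Cdh5 and Flt4 were 291, 139 and 303. Not every capillary gene was absent from marrow, since Gpihbp1, which anchors lipoprotein lipase to capillaries, was 983, 257 and 615 in marrow P3 and rose there over P1 and P2 by 7.23 (SE 0.97, limma adjusted p = 0.000151).

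On the sinusoidal side, Fcgr2b, an Fc receptor of sinusoidal endothelium and of B and myeloid cells, stood at 635, 280.3 and 536 in marrow P3 and was lower in muscle P3, with a log2 difference of -4.36 (limma adjusted p = 0.00354), and in periosteum P3, with -3.81 (limma adjusted p = 0.016). Mrc1, the mannose receptor of sinusoidal endothelium and macrophages, was 1254, 221 and 876 in marrow P3 and rose over P1 and P2 by 6.24 (SE 1.79, limma adjusted p = 0.0463). Stab1, the relative of Stab2, stood at 1920.3, 482 and 1334 in marrow P3, 1248, 1003 and 573 in muscle P3 and 731, 1332 and 776 in periosteum P3, in overlapping ranges. Lyve1, a hyaluronan receptor of lymphatic and some sinusoidal endothelium, went the other way, with 375, 290.4 and 322 in muscle P3 and 7.13, 0 and 0 in marrow P3, a difference of 7.35 (SE 1.47, limma adjusted p = 0.00139). Prox1, the defining factor of lymphatic endothelium, was 266, 242 and 81.5 in muscle P3 and 18.8, 0 and 0 in marrow P3, while the Flt4 libraries of both overlapped. The level of Prox1 in muscle was not particular to P3, since muscle P1 held 298, 336 and 167 and was higher than P2 (log2 difference 6.11, limma adjusted p = 0.0453), and P3 was not called against P1 and P2.

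**Figure D4:**
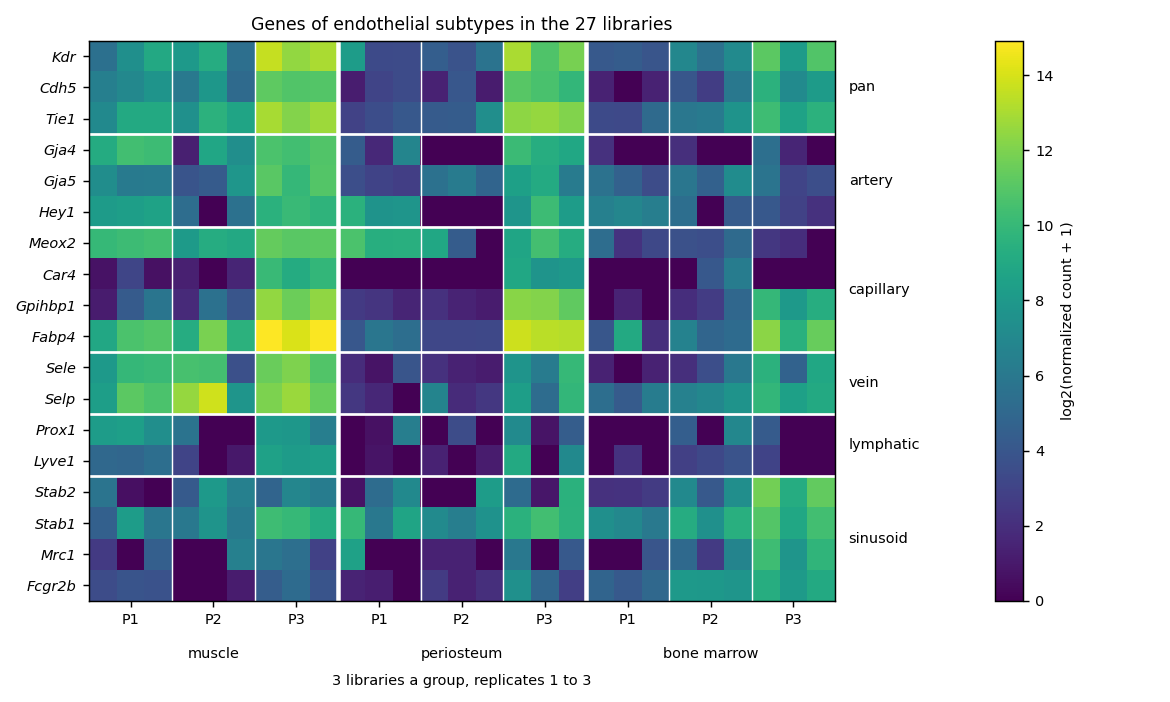
Rows are genes grouped by the endothelial type they are known for, columns are the 27 libraries in 9 groups, and colour gives log2(normalized count + 1). The capillary gene Car4 is at 0 in the marrow P3 libraries, in which Stab2 stands at 600.4 or more.

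The CD105- cells were compared with each other to see where the 10 genes stood without CD105. In bone marrow, 7 of the 10 genes were lower in P1 than in P2, where 23.7% of all genes were and the all-gene median was -0.61. They were Pecam1, Esam, Vwf, Cdh5, Emcn, Flt1 and Tek, and the values of all 10 genes were negative. The 27 further endothelial genes were mixed in marrow, with 8 lower and 3 higher in P1 than in P2. S1pr1 was higher by 6.40, Clec14a by 4.93 and Esm1 by 4.85, with limma adjusted p of 0.000107, 0.0331 and 0.00349. In periosteum, S1pr1 was 7.87 higher in P1 than in P2 (limma adjusted p = 1.60e-05), and 2 of the 27 were lower. Esam stood at 10.8, 9.46 and 22.8 in P1 and 294, 264 and 145 in P2 and fell by 3.97 in P1 on the log2 scale (limma adjusted p = 0.000295). The value was -2.98 for Pecam1 (limma adjusted p = 0.000829) and -3.04 for Vwf (limma adjusted p = 0.0113). It was -4.46 for Tek, -3.83 for Flt1, -3.50 for Emcn and -3.27 for Cdh5, with limma adjusted p between 0.0115 and 0.0325. Under quantile normalization and with a pseudocount of 5, 4 of the 10 genes were called. Leaving out bone marrow P1 replicate 2 or P2 replicate 3 also left 4. Under quantile normalization the value was -0.76 for Cdh5 and -0.48 for Emcn. Pecam1 and Esam were called in all 38 alternatives. The Tek call was lost without P1 replicate 1 or 2 or P2 replicate 3, the Flt1 call without replicate 1 or 3 of P1 or of P2, the Cdh5 call without P1 replicate 2 or P2 replicate 3, and the Vwf call without P1 replicate 2. All 10 erythroid genes and 2 of 11 leukocyte genes were also lower in P1 than in P2 in marrow, and their part in these values was not tested. In muscle and in periosteum none of the 10 genes passed limma's test between P1 and P2, where 8.21% and 19.1% of all genes did, and 1 gene in each, Esam in muscle and Pecam1 in periosteum, had an unadjusted p under 0.05. Esam was called in muscle with a pseudocount of 5, where its value was 1.97, and with the same total per library, where it was 2.64, and Pecam1 in periosteum without periosteum P1 replicate 2, where its value was -1.97.

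Markers of other cells were summed in the same libraries. In bone marrow, where Vwf and Pecam1 were high in P2, the summed level of 12 megakaryocyte and platelet genes was 3039.5, 2269 and 10839.6 in P1, 17474, 20767 and 2639 in P2 and 1723, 10574 and 5283 in P3. Pf4, platelet factor 4, stood at 639, 259 and 1341 in P1, 2587, 2967 and 327 in P2 and 217, 3349 and 715 in P3, and no gene of the list was at 0 in all 3 libraries of a marrow group. Marrow P3 replicate 2, the library with low values of 9 of the 10 genes and the highest Vwf of its group, had the highest sum of megakaryocyte genes in P3. In muscle P3 the sum was 534 to 3220.4 and in periosteum P3 429.6 to 1380.1. None of the 12 genes was called in marrow P3 against P1 and P2. Of 10 genes of haematopoietic stem and progenitor cells, none was called there either, and Gata2, a transcription factor of blood progenitors that endothelium also expresses, rose in P3 of muscle by 6.12 (limma adjusted p = 0.000978) and of periosteum by 7.14 (limma adjusted p = 0.000251). At an unadjusted p under 0.05 the numbers in marrow were 0 of 12 and 1 of 10. In muscle P3, Rgs18 of the platelet list rose by 3.43 (limma adjusted p = 0.0222). The part of megakaryocytes and platelets in the values of Vwf and Pecam1 was not tested.

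**Figure D5:**
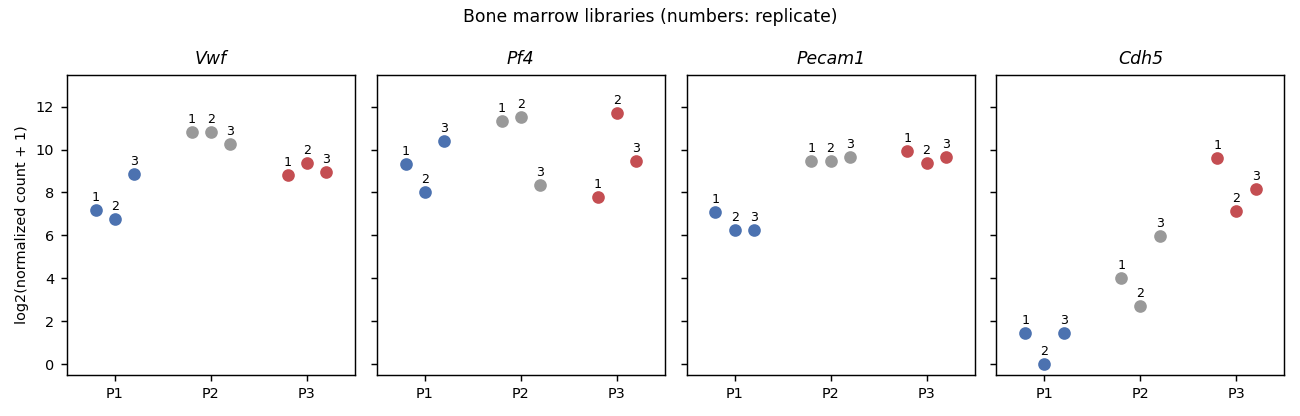
The 4 panels plot Vwf, Pf4, Pecam1 and Cdh5 in the 9 bone marrow libraries as log2(normalized count + 1), with P1, P2 and P3 on the horizontal axis and the replicate number beside each point. Vwf is highest in P2, Pf4 is highest in P3 replicate 2, and Cdh5 is highest in P3.

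Genes of stromal and mural cells were present beside the endothelial genes. The summed level of 10 mesenchymal genes in P3 was 339878 to 445159 in muscle, 188163 to 552984 in periosteum and 105232 to 199840.0 in marrow, and none of these genes was at 0 throughout a P3 group. Of the 10, Cxcl12, a chemokine of stromal cells, was higher in P3 than the mean of P1 and P2 in each tissue. The other 9 were not called. That mean joins unlike groups, so neither result places P3 level with or above P1. In marrow the sum was 4630250 to 8837820 in P1 and 5036 to 9394 in P2. In periosteum it was 1238540 to 2100990 in P1 and 37358 to 98902 in P2. P3 lay between P1 and P2 in both tissues, whereas in muscle it overlapped P1 and was above P2. Of 12 mural cell genes, Des was lower in muscle P3, Rgs5, Mcam and Higd1b were higher in periosteum P3 and Mcam was higher in marrow P3 against P1 and P2, and their sum was 31218 to 40711, 11689.7 to 15021 and 1273 to 7578 in P3 of muscle, periosteum and marrow. Between P3 groups, 6 mural genes were higher in muscle and 4 in periosteum than in marrow, where 6.14% and 2.95% of all genes were. Of the 10 mesenchymal genes, 5 were higher and 1 was lower in muscle than in marrow, and 5 were higher in periosteum than in marrow. Mcam is expressed by endothelium as well as by pericytes. The summed level of 12 leukocyte genes was 10310.5 to 40324 in marrow P3, 32788 to 158016 in marrow P2 and 13286 to 43646 in marrow P1. It did not exceed 953 in P3 of muscle and periosteum, and reached 72880.1 in periosteum P2 replicate 2. None of the 11 leukocyte genes tested was called in P3 against P1 and P2 in any tissue, and at an unadjusted p under 0.05 there were 0 in muscle, 2 in periosteum and 0 in marrow. Cd3e, a T cell gene, was listed at 0 in all marrow libraries. The summed level of 10 erythroid genes was 24979 to 43691 in muscle P3, 182541 to 218788 in periosteum P3 and 286911 to 501049 in marrow P3. In P2 it made up 0.941% to 1.6% of a library in muscle, at least 24.7% in periosteum and at least 45.7% in marrow, above every P3 library of the same tissue. In P3 against P1 and P2, the globin genes Hba-a1, Hba-a2 and Hbb-bs were lower in marrow, and 2 of the 10 genes were higher in periosteum. What these cells contributed to the differences between tissues and between subpopulations was not tested.

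To rank the 10 genes against each other, normalized counts were divided by the length of the merged exons (GENCODE M21, GRCm38), and means over the 3 P3 libraries are given per kilobase. In muscle P3, Esam led with 3020.0, followed by Tek with 1440.0, Pecam1 with 1341 and Kdr with 982, while Flt4 with 86.2 and Stab2 with 8.22 were last. In periosteum P3, the order began with Esam at 2093, Pecam1 at 856 and Tek at 771, and again ended with Stab2, at 29.2. In marrow P3, Esam at 378 was followed by Stab2 at 253, Flt4 at 181 and Tek at 180.0, and Vwf was last at 33.4. Stab2 thus moved from last place in muscle and periosteum to second in marrow. Neighbours in these orders had overlapping libraries in most cases, and Pecam1 and Tek in muscle or Flt4, Tek and Kdr in marrow are not set apart by their spread.

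The likeness of patterns was described with Pearson's r over the 27 libraries, which share groups, tissues and library composition, so that no p is given. Cdh5 and Emcn were the most alike of the 10 genes (r = 0.94), followed by Esam and Emcn (r = 0.928) and Pecam1 and Cdh5 (r = 0.923). Tek and Stab2 were the least alike (r = 0.033). Outside the 10 genes, Tie1 followed their mean most closely (r = 0.96), ahead of Cd93 (r = 0.93), Podxl (r = 0.929), Gpihbp1 (r = 0.928) and Gimap4 (r = 0.928). Kdr was most like Gpihbp1 (r = 0.929), Vwf most like Pecam1 (r = 0.875), Flt4 most like Pcdh12 (r = 0.863) and Tek most like Ly6c1 (r = 0.827). The closest match of Stab2, Slc39a8, reached an r of 0.747.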

How the data were processed

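Each library had been made from cells sorted by flow cytometry, with full-length cDNA amplification from very little RNA (SMART-Seq v4) and Nextera XT libraries. The authors trimmed reads with Trim Galore, aligned them with STAR and handled counts with DESeq2. The deposited signal values are the authors' normalized counts per gene, on a linear scale. The genome build, annotation and counting tool are not given in the sources used here. Whole reads could not be recovered from them, since between 36% and 94.1% of low values per library lay within 0.05 of a whole number of steps, so no count model was run. The depth in reads is unknown, and no counting interval is given.

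A transgene row was left out of 30154 rows, and 18442 entries with at least 10 normalized counts in at least 3 libraries were kept. Values were taken as log2(normalized count + 1), which understates the change of low genes, and fitted with limma 3.58.1 in R 4.3.3 (a mean for each of the 9 groups, moderated variances with a trend). Adjustment of p-values (Benjamini-Hochberg) ran over all 18442 entries, and genes were called at an adjusted p under 0.05 and an absolute log2 fold change over 1.5. The fit was tested on simulated data. Contrasts were P3 against the mean of P1 and P2 in each tissue, P3 between tissues, P1 against P2, and the differences between tissues of the first. Contrasts between tissues set cells against each other that were released in different ways, by digestion for 60 minutes (muscle) or 20 minutes (periosteum) or by flushing (marrow), and tissue and release cannot be told apart.

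The 10 genes and all marker lists were chosen with earlier results of these data known. Genes named besides them were taken from the sort genes, the 4 genes of highest mean level in each list, the 3 called genes with the largest change in each contrast of the endothelial, pathway and subtype lists, and the genes most like the members in pattern. Not all genes that these rules pick are named, so those named are a selection. Any other gene named, such as Cd3e, was chosen after its values were seen. Symbols held by more than 1 entry were left out, which affected 185 entries. Promoters came from a RefSeq table (GRCm38.p6) and exon lengths from GENCODE M21. Alternatives were other pseudocounts, filters and thresholds, other scalings, a fit without trend, only the groups compared, a replicate term, and each library left out.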

Additional observations from a re-analysis of the deposited data

Results flagged for a closer look

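The P3 difference was called as different between tissues for 3 of the 10 genes. This interaction was passed by 1.81% of all genes between muscle and periosteum and 0.569% between periosteum and marrow. Since the genes had been chosen by their P3 differences, these calls are a description and not independent evidence. For Esam it was smaller in muscle than in periosteum, with a value of -6.71 (SE 0.92, limma adjusted p = 0.00027), and larger in periosteum than in bone marrow, with a value of 6.15 (SE 0.92, limma adjusted p = 0.00122). For Emcn it was smaller in muscle than in periosteum, with a value of -5.26 (SE 1.27, limma adjusted p = 0.0308), a call lost in 11 of 38 alternatives. For Pecam1 it was larger in periosteum than in bone marrow, with a value of 3.30 (SE 0.77, limma adjusted p = 0.0445), a call lost in 22 of 38 alternatives. Groups of 3 libraries are too small to test for single libraries that stand apart.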

How the results depend on the processing

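Counts of genes called depended on the settings as follows. For the endothelial list in P3 against P1 and P2, a pseudocount of 0.1 gave 11 genes in muscle in place of 20, and a fit of only the groups compared gave 10 in periosteum in place of 25. The fit of only the groups compared also gave 1 of the 10 genes for P3 of muscle against periosteum, 9 for muscle against marrow, and, for the difference of the P3 change, 1 between muscle and periosteum, 4 between muscle and marrow and 0 between periosteum and marrow. A pseudocount of 5 gave 5 genes for P3 of muscle against marrow, 1 for P1 against P2 in muscle, 4 in marrow, and 1 for the difference between muscle and periosteum. A pseudocount of 0.1 gave 1 gene for P3 of periosteum against marrow and 1 for the difference both between muscle and periosteum and between periosteum and marrow. The same total per library gave 1 for P3 of periosteum against marrow, for P1 against P2 in muscle and for the difference between periosteum and marrow. Quantile normalization gave 4 for P1 against P2 in marrow and 1 for the difference between muscle and periosteum and between muscle and marrow, and the fit without a trend gave 1 between periosteum and marrow. Without bone marrow P3 replicate 2 and periosteum P3 replicate 2, a setting chosen after seeing the data, 0 genes were called for P3 of periosteum against marrow and 1 for the difference between them. The cause was not tested.

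With 1 library left out, the list counts ran from 8 to 21 in muscle, 20 to 25 in periosteum and 8 to 17 in marrow. Counts of the 10 genes ran from 0 to 0 (muscle against periosteum), 2 to 4 (muscle against marrow) and 0 to 3 (periosteum against marrow) in P3, and from 0 to 0, 0 to 1 and 4 to 8 for P1 against P2 in muscle, periosteum and marrow. For the difference of the P3 change they ran from 1 to 3, 0 to 1 and 1 to 2 in the same order of tissues. The P3 difference of Vwf in marrow, -0.06, turned to 0.97 with the same total per library. Leaving out bone marrow P1 replicate 3 turned it to 0.26 and leaving out P3 replicate 1 to 0.05, within a range over all libraries left out of -0.27 to 0.26. That of Stab2 in periosteum, 1.65, turned to -0.50 without periosteum P3 replicate 3, within a range of -0.50 to 3.80.

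Libraries with the same replicate number did not deviate together (mean r = 0.000242 over 36 pairs of groups, from -0.0592 to 0.0502). The r does not by itself show that no mouse was shared. The numbers were not taken as pairs, since the labels do not say which mouse gave which library. With a replicate block, the endothelial list gave 18, 25 and 14 genes in muscle, periosteum and marrow, the 10 genes gave 0, 3 and 2 for P3 between tissues, 0, 0 and 7 for P1 against P2 and 2, 0 and 2 for the differences, and all 90 tested values of the 10 genes kept their call.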
